A study of Mus musculus with 12 samples.

Results

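The enhancer viewpoint named Malt1 lies between 2 genes on mouse chromosome 18, Alpk2 and Malt1, and the pairs of DNA fragments found together with it within 1 Mb were compared between naive and primed pluripotent cells. Fragment pairs were included when the midpoints of both fragments lay within 1 Mb of chr18:65416353 (mm10), where the capture oligonucleotide of the viewpoint starts. In naive cells 307 distinct fragment pairs met this rule and in primed cells 236, which makes 508 distinct pairs in all, out of 159167 rows in the 46 tables of the series. The 307 naive pairs carried 470 of the 682 counts of the viewpoint, or 68.9% (exact Clopper-Pearson 95% interval 65.3 to 72.4%), and the 236 primed pairs carried 331 of 485 (68.2%, 63.9 to 72.4%).

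Tri-C starts from crosslinked chromatin that is digested by DpnII, religated and sonicated. Biotin-labelled oligonucleotides then pull out the pieces of DNA that contain a viewpoint. A read that holds the viewpoint and at least 2 further fragments of the same chromosome, called reporters, records a multiway contact, so a count here is 1 observation of a pair of reporters with the viewpoint. Contacts of this kind become rarer with distance along the chromosome, and they are read as proximity in the nucleus, not as regulation. Malt1 encodes a paracaspase that carries signals from antigen receptors to NF-kB, and Alpk2 encodes a protein kinase of the alpha-kinase family. The tables hold contacts only, so nothing below says how much either gene was transcribed.

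The study followed mouse embryonic stem cells as they left naive pluripotency, and Tri-C was performed on the J1 line, in 3 biological replicates of either state and with 2 pools of oligonucleotides. Naive cells were kept on gelatin in serum-free N2B27 medium with 2i, LIF and BSA. Primed cells were kept on Geltrex for a week in the same base medium without these additions, with Fgf2, Activin A and Knockout Serum Replacement. The viewpoint belonged to pool 2 and each state has 1 deposited table, which was taken to hold all 3 replicates. Thus no value has a replicate error, and a difference between the states cannot be told apart from a difference between their libraries. Intervals are given at the 95% level and cover counting error only. Any read with over 2 reporters enters several pairs, and PCR copies of a molecule are not independent of each other, so the intervals are too narrow.

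No gene span of RefSeq (GRCm38.p6, the assembly of mm10) covers the viewpoint. Alpk2, at chr18:65265529-65393888 on the minus strand, starts 22.5 kb below the viewpoint and runs away from it. Malt1, at chr18:65430939-65478888 on the plus strand, starts 14.6 kb above the viewpoint and also runs away from it. The start of each gene was therefore its end nearer to the viewpoint. The window of 1 Mb on each side overlapped the spans of 14 protein-coding genes. On the lower side these were Fech, Nars, Atp8b1, Nedd4l and Alpk2, and on the higher side Malt1, Zfp532, Oacyl, Sec11c, Grp, Rax, Cplx4, Lman1 and Ccbe1.

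Counts with a reporter in the 10 kb bin of the viewpoint were described apart. They made up 41 of 470 local counts in naive cells, or 8.72% (6.33 to 11.6%), and 40 of 331 (12.1%, 8.78 to 16.1%) in primed cells. The naive share was 0.722 times the primed share (exact conditional interval of the ratio 0.455 to 1.14), which includes 1. Of the 5 most counted fragments of the locus 4 lay in this bin, all between 3.16 and 3.46 kb below the viewpoint. The most counted fragment, chr18:65413048-65413137, had 18 counts in each state. It was seen together with the fragment at chr18:65413158-65413223 in 10 naive and 8 primed counts, the most repeated pair of naive cells. The fifth fragment, chr18:65431742-65431887, lay in Malt1, 15.5 kb from the viewpoint, with 16 naive and 5 primed counts. Unless another total is named, shares from here on refer to the 429 naive and 291 primed local counts outside the viewpoint bin, which lay on 288 and 214 distinct pairs.

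The most touched bins lay right beside the viewpoint, and both neighbouring genes were reached in both states. The 10 kb bin just below the viewpoint bin, chr18:65400001-65410000, was touched by 44 naive counts (10.3%, 7.55 to 13.5%) and 25 primed counts (8.59%, 5.64 to 12.4%). The bin that holds the start of Malt1, chr18:65430001-65440000, had the same 44 and 25 counts. Between them, chr18:65420001-65430000 was touched by 28 counts in each state, 6.53% of naive (4.38 to 9.30%) and 9.62% of primed counts (6.49 to 13.6%). The intergenic bin below the viewpoint and the bin of the Malt1 start thus had equal counts within each state, but not equal numbers of distinct pairs. The former had 32 naive and 20 primed pairs, the latter 21 and 13. The intervals of the ratio included 1 in these 3 bins, at 1.19 (0.715 to 2.04) for the outer 2 and 0.678 (0.387 to 1.19) for the one between.

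**Figure D1:**
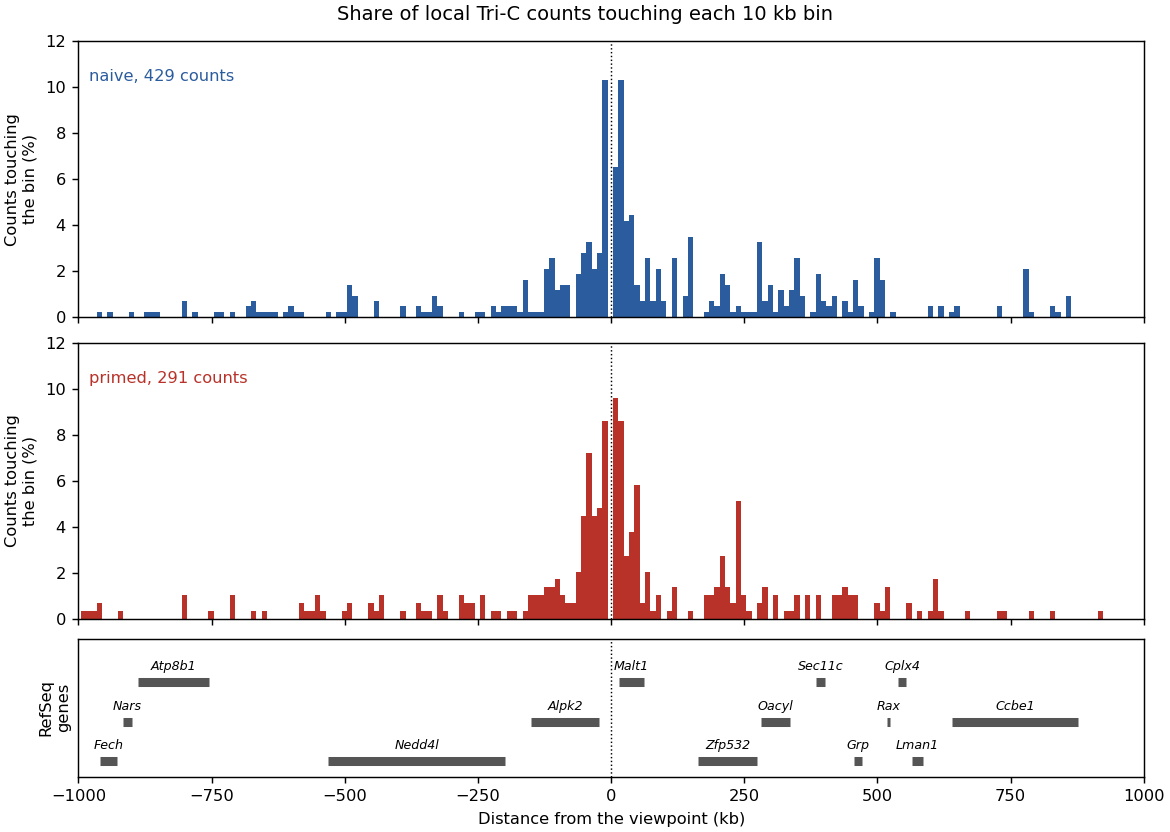
Share of the local counts that touch each 10 kb bin (y axis, % of 429 naive and 291 primed counts) against the distance of the bin from the viewpoint (x axis, kb, higher coordinates to the right), with the spans of the 14 protein-coding genes below. The viewpoint bin is left out. In both states the highest bars, up to 10.3% in naive and 9.62% in primed cells, stand next to the viewpoint, and an isolated primed bar of 5.15% in Zfp532 comes mostly from 1 fragment pair.

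Malt1 itself was touched by 75 naive counts, or 17.5% (14.0 to 21.4%), and by 57 primed counts, or 19.6% (15.2 to 24.6%). The ratio was 0.893 (0.624 to 1.28), with an interval that includes 1. Its direction turned with the weight of repeats. The 75 counts lay on 42 distinct pairs and the 57 on 24, and with each distinct pair counted once the ratio was 1.30 (0.769 to 2.24). Without the most counted pair of each state, which in naive cells lay in the viewpoint bin and was already left out, it was 1.10 (0.751 to 1.64). Within 5 kb of the start of Malt1 there were 48 naive counts (11.2%, 8.37 to 14.6%) and 25 primed counts (8.59%, 5.64 to 12.4%), a ratio of 1.30 (0.787 to 2.20). The part of the gene up to its middle took most of the counts in its span, with 58 naive and 39 primed counts against 17 and 22 in the remainder.

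Alpk2 was touched by 79 naive counts, or 18.4% (14.9 to 22.4%), and by 75 primed counts, or 25.8% (20.8 to 31.2%). The naive share was 0.714 times the primed share (0.514 to 0.993), an interval that ends just below 1. The part of the gene nearer to the viewpoint, which includes its start, had 51 naive counts (11.9%, 8.98 to 15.3%) and 56 primed counts (19.2%, 14.9 to 24.3%), a ratio of 0.618 (0.414 to 0.919). The remainder of the gene had 28 and 21 counts, 6.53% and 7.22%, with a ratio of 0.904 (0.495 to 1.68). Whether these parts differed in their ratios was not tested. Unlike in Malt1, hardly any pair was repeated in Alpk2, with 72 distinct pairs behind the 79 naive counts and 71 behind the 75 primed counts. Counting each distinct pair once gave 0.754 for the gene (0.535 to 1.06) and 0.686 for its nearer part (0.454 to 1.04), and leaving out neighbouring fragments, those adjoining on the chromosome, gave 0.737 (0.450 to 1.21) and 0.691 (0.392 to 1.22). These 4 intervals include 1. Without the most counted pair of each state the values were 0.683 (0.491 to 0.949) and 0.590 (0.396 to 0.878), which exclude 1. Neither of those pairs touched Alpk2, so this setting only lowered the primed total to 278 and is no check of the Alpk2 counts. Within 5 kb of the start of Alpk2 there were 12 naive and 15 primed counts, 2.80% and 5.15% (ratio 0.543, 0.232 to 1.24).

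Reads that joined both genes to the viewpoint at once were rare. There were 3 such counts in naive cells (0.699%, 0.144 to 2.03%) and 1 in primed cells (0.344%, 0.00870 to 1.90%). Most counts that touched either gene had both reporters inside it. In Malt1 there were 54 naive and 31 primed counts of this kind, and in Alpk2 59 and 61. The share with both reporters in Alpk2 was 13.8% in naive (10.6 to 17.4%) and 21.0% in primed cells (16.4 to 26.1%), a ratio of 0.656 (0.451 to 0.954), while that with both in Malt1 had a ratio of 1.18 (0.746 to 1.90). Without neighbouring fragments the ratio within Alpk2 was 0.546 (0.266 to 1.10), which includes 1, and by distinct pairs it was 0.678, with an interval from 0.456 up to 1.00. No naive count joined the regions within 5 kb of the 2 starts, which allows up to 3 counts, or 0.699%, and 2 primed counts did.

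Of the 14 protein-coding genes 12 were touched, and 8 had at least 10 counts in both states together, 4 with a higher share in naive and 4 with a higher share in primed cells. The interval of the ratio excluded 1 for 3 of these 8 (37.5%), Alpk2, Zfp532 and Ccbe1, and for 0 of the 8 with each distinct pair counted once. Ccbe1, Oacyl and Sec11c, all higher in naive cells, reached 10 counts in naive cells alone. Their ratios and these numbers of genes thus carry no weight as support for a difference. Below Alpk2, Nedd4l, an E3 ubiquitin ligase that limits epithelial sodium channels, had 34 naive and 29 primed counts, 7.93% and 9.97% (ratio 0.795, 0.470 to 1.35). Atp8b1, a phospholipid flippase, had 7 and 3 counts. Both genes were thus within counting error between the states.

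Above Malt1, Zfp532, a zinc finger protein gene at chr18:65580230-65689443, was touched by 25 naive counts (5.83%, 3.81 to 8.48%) and 40 primed counts (13.7%, 10.0 to 18.2%), a ratio of 0.424 (0.246 to 0.716). A single fragment pair made up part of this difference. The fragment at chr18:65465602-65465812 in Malt1 and that at chr18:65657704-65657828 in Zfp532, 192 kb apart, were counted together 13 times in primed cells and not at all in naive cells, where a count of 0 allows up to 3 counts, or 0.699%. This was the most counted pair of primed cells and the only pair that joined Malt1 and Zfp532 in either state. Without the most counted pair of each state the ratio for Zfp532 was 0.600 (0.334 to 1.07). Counting each distinct pair once gave 0.568 (0.254 to 1.24), from 13 and 17 pairs. With that pair kept and neighbouring fragments left out, the ratio was 0.373 (0.175 to 0.757). Whether the 13 counts stem from different molecules was not tested, since the tables give no read.

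Farther up, Oacyl, a predicted acyltransferase gene, had 18 naive and 9 primed counts, 4.20% and 3.09% (ratio 1.36, 0.579 to 3.43). Sec11c, a catalytic subunit of the signal peptidase complex, had 10 and 3 counts (2.26, 0.582 to 12.8). Ccbe1, which is needed for lymphatic vessel growth, had 21 naive counts (4.90%, 3.06 to 7.39%) and 5 primed counts (1.72%, 0.560 to 3.96%), a ratio of 2.85 (1.05 to 9.67). Its 21 counts lay on 13 distinct pairs, and counting each once gave 1.93 (0.646 to 6.92). Without neighbouring fragments the ratio was 2.63 (0.694 to 14.7), and both intervals include 1. The 6 other genes had between 0 and 6 counts in both states together, and 2 of them, Nars and Cplx4, had none.

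**Figure D2:**
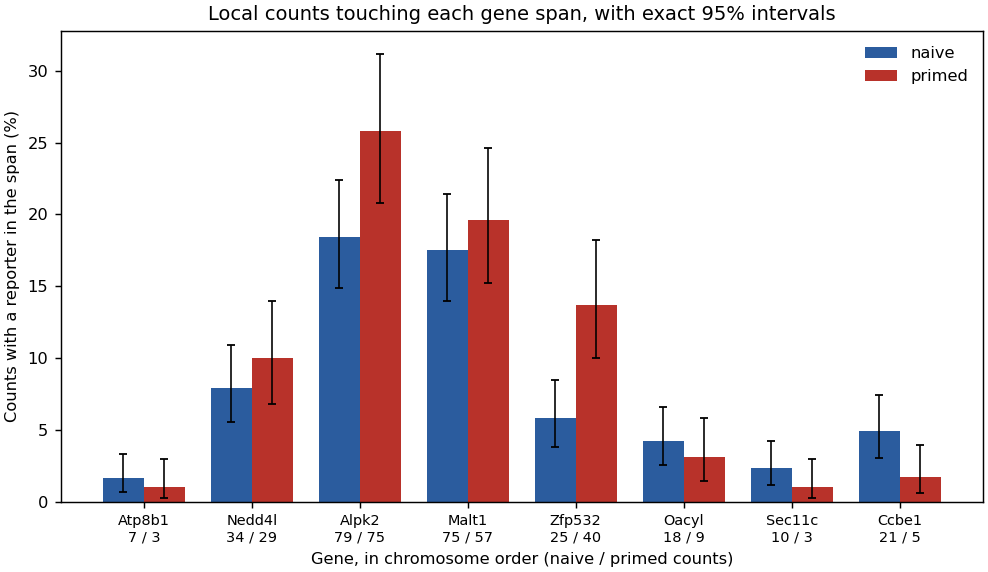
Share of local counts with at least 1 reporter in the span of each gene with 10 or more counts (y axis, %), in chromosome order, with the naive and primed counts under each name and exact 95% intervals as error bars. Alpk2 and Malt1 are highest in both states, and the largest gap between the bars, 5.83% against 13.7% at Zfp532, includes the 13 counts of a single primed pair.

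At least 1 reporter fell into a protein-coding span in 60.6% of naive counts (55.8 to 65.3%) and 71.5% of primed counts (65.9 to 76.6%), a ratio of 0.848 (0.704 to 1.02). Both reporters lay between genes of any RefSeq kind in 159 of 429 naive counts (37.1%, 32.5 to 41.8%) and 77 of 291 primed counts (26.5%, 21.5 to 31.9%). The ratio of these was 1.40 (1.06 to 1.86). It was 1.83 (1.04 to 3.36) without pairs of fragments that adjoin on the chromosome and 1.28 (0.911 to 1.82) when each distinct pair was counted once. The comparison was chosen after the values had been seen.

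Of the 200 bins of the window 137 were touched, and 26 had at least 10 counts in both states together, with a median ratio of 1.19. The naive share was at least 2-fold the primed share in 5 of the 26 bins (19.2%), and the primed share was at least 2-fold the naive share in 4 (15.4%). The interval of the ratio excluded 1 in 5 of the 26 bins (19.2%), all of them among these 9, and in 0 of the 9 with each distinct pair counted once. A bin could pass the minimum through the state in which it was high. Of the 9 bins, 7 had at least 10 counts in 1 state alone, as had 4 of the 5 whose interval excluded 1, so these numbers carry no weight as support for a difference. The bins are named here after their values were seen. Of the 4 bins higher in primed cells, 2 adjoin each other in the part of Alpk2 nearer to the viewpoint. The first, chr18:65370001-65380000, had 14 naive and 21 primed counts (ratio 0.452, 0.213 to 0.932), and the next, chr18:65380001-65390000, had 9 and 13 (0.470, 0.177 to 1.19). No pair was counted more than 2 times in either of them. The other 2 were chr18:65460001-65470000 in Malt1, with 6 and 17 counts, and chr18:65650001-65660000 in Zfp532, with 2 and 15, the ends of the pair that was counted 13 times.

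All 5 bins with the higher share in naive cells lay on the higher side, between 88.6 and 499 kb from the viewpoint. The highest ratio was that of chr18:65560001-65570000, between Malt1 and Zfp532 and 149 kb from the viewpoint, with 15 naive counts on 7 distinct pairs and 1 primed count (10.2, 1.57 to 428). The bin chr18:65690001-65700000, which holds the end of Oacyl nearer to the viewpoint, had 14 and 2 counts (4.75, 1.09 to 43.0). The remaining 3, chr18:65500001-65510000, chr18:65760001-65770000 and chr18:65910001-65920000, had 9 and 3, 11 and 3, and 11 and 2 counts, and their intervals included 1. Among the 10 bins with at least 20 counts, the ratio ran from 0.239 (0.0773 to 0.636) in the Malt1 bin at one end of the repeated pair to 1.53 (0.631 to 4.06) in another Malt1 bin, chr18:65440001-65450000.

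By side of the viewpoint, both reporters lay below it in 36.6% of naive counts (32.0 to 41.4%) and 43.6% of primed counts (37.9 to 49.6%), a ratio of 0.839 (0.659 to 1.07). Both lay above it in 57.6% (52.7 to 62.3%) and 48.1% (42.2 to 54.0%), a ratio of 1.20 (0.969 to 1.48). The viewpoint stood between them in 25 naive counts (5.83%, 3.81 to 8.48%) and 24 primed counts (8.25%, 5.36 to 12.0%), a ratio of 0.707 (0.387 to 1.29). The higher side was thus the more counted in naive cells, while in primed cells the sides, with 140 counts above and 127 below, did not differ beyond counting error. The primed lead of the higher side was the 13 counts of the repeated pair, without which each side had 127, and it turned to 146 above and 158 below when the viewpoint bin was kept. The ratios between the states all had intervals that include 1. Split by distance, the counts with a reporter 50 to 200 kb above the viewpoint, the stretch from the last part of Malt1 into Zfp532, were 64 in naive (14.9%, 11.7 to 18.6%) and 27 in primed cells (9.28%, 6.20 to 13.2%). This ratio of 1.61 (1.01 to 2.62) was the only 1 of 6 side and distance classes with an interval that excluded 1. It was 1.60 when repeats were counted once (0.910 to 2.92). The class leaves out the primed pair counted 13 times, whose ends lay 49.4 and 241 kb above the viewpoint, in the classes on either side. The nearer end thus missed this class narrowly, and how the ratio depends on the class edge was not tested.

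By the distance of the farther reporter, 33.8% of naive and 37.1% of primed counts stayed under 50 kb (ratio 0.911, 0.705 to 1.18). Between 50 and 200 kb there were 24.0% and 19.9% (1.20, 0.865 to 1.69), and from 200 kb to 1 Mb 42.2% and 43.0% (0.982, 0.778 to 1.24). Within the window, the shares of these distance classes were thus within counting error between the states. The median distance of the farther reporter was 138 kb in naive and 117 kb in primed cells. Without neighbouring fragments it was 161 and 224 kb, and these medians have no interval. The 2 reporters lay over 50 kb apart in 61 naive counts (14.2%, 11.1 to 17.9%) and 55 primed counts (18.9%, 14.6 to 23.9%), a ratio of 0.752 (0.514 to 1.10). Without the most counted pair of each state this ratio was 0.941.

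The reporters of a count mostly lay next to each other. They were less than 1 kb apart in 67.8% of naive counts (63.2 to 72.2%) and 62.5% of primed counts (56.7 to 68.1%), and fell into the same 10 kb bin in 73.7% (69.2 to 77.8%) and 67.4% (61.6 to 72.7%). Of all 470 and 331 local counts, 58.3% in naive (53.7 to 62.8%) and 55.9% in primed cells (50.4 to 61.3%) joined neighbouring fragments, whose listed ends were at most 4 bp apart. The ratio of these shares was 1.04 (0.862 to 1.26). A neighbouring pair left uncut at the site between its fragments and a pair cut and ligated again cannot be told apart in these tables. Over the 10 other viewpoints that had 400 counts or more per state, the share of neighbouring fragments within 1 Mb ran from 28.3 to 43.5% in naive and from 30.6 to 44.7% in primed cells. The intervals of the Malt1 viewpoint lay above all of these values, and it ranked 1 of 11 in both states. Its totals of 682 and 485 counts were also the lowest of the 11, and the part that depth or fragment size plays in this was not tested.

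**Figure D3:**
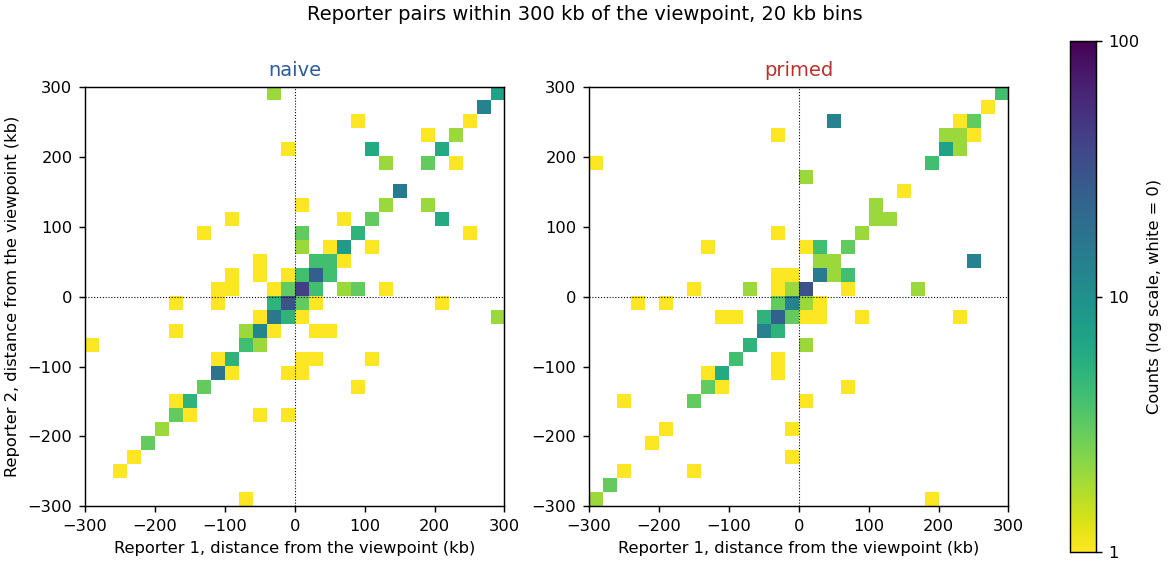
Counts of reporter pairs within 300 kb of the viewpoint in naive (294 counts) and primed cells (210 counts), with the distance of either reporter from the viewpoint on the axes in bins of 20 kb, a log colour scale and white for no count. Counts lie along the diagonal in both states, 22 of the 32 naive and 16 of the 26 primed cells off it hold a single count, and the isolated dark cell of the primed matrix is the pair of Malt1 with Zfp532 counted 13 times.

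Away from the diagonal, only 74 naive and 59 primed pairs of different 10 kb bins held any count. The 5 bin pairs with the most counts all joined a bin to itself. They were the bin just below the viewpoint bin with 29 naive and 12 primed counts, the bin of the Malt1 start with 23 and 18, the bin between viewpoint and Malt1 with 12 and 14, chr18:65370001-65380000 in Alpk2 with 10 and 13, and chr18:65450001-65460000 in Malt1 with 18 and 5. None of these 5 had an interval that excluded 1. Of the pairs of different bins, that of chr18:65420001-65430000 with the bin of the Malt1 start had the most counts in both states together, 9 in naive and 5 in primed cells, followed by the pair that holds the 13 primed counts of Malt1 with Zfp532. The 5 primed counts were 1 fragment pair, and the 9 naive counts lay on 4. In naive cells, 6 counts joined chr18:65530001-65540000, between Malt1 and Zfp532, to chr18:65620001-65630000 in Zfp532, on 2 distinct pairs, and no primed count did.

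Of the distinct pairs, 35 were seen in both states, 11.4% of the naive and 14.8% of the primed pairs. Most pairs rested on a single count, so a pair missing from 1 state says little. In naive cells 70.7% of the 307 pairs were counted once (65.2 to 75.7%) and in primed cells 80.5% of the 236 (74.9 to 85.4%). Some pairs shared fragments with each other. In naive cells 24 sets of 3 fragments, and in primed cells 23, had all their pairs in the table, and these held 22.8% and 23.3% of the distinct pairs. A read with the viewpoint and 3 reporters would add such a set, but separate reads can also give one, and the tables do not tell these apart.

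Repeats were spread unevenly over the sides of the viewpoint, in the same way in both states. In naive cells the 157 counts with both reporters below the viewpoint lay on 132 distinct pairs, and 87.1% of these pairs were counted once (80.2 to 92.3%). Above it, 247 counts lay on 131 pairs, and 49.6% were counted once (40.8 to 58.5%). In primed cells the shares counted once were 93.1% below (86.9 to 97.0%), with 127 counts on 116 pairs, and 60.0% above (48.0 to 71.1%), with 140 counts on 75 pairs. Thus about as many distinct pairs lay on either side in naive cells, and it was the repeats that made the higher side the more counted. In primed cells more distinct pairs lay below the viewpoint, while the counts of the sides were close. Pairs with 1 reporter on each side were almost never repeated, with 25 counts on 25 pairs in naive and 24 on 23 in primed cells.

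The contrast between the sides held at each distance in naive cells. Under 50 kb, 78.7% of the lower pairs (64.3 to 89.3%) and 43.2% of the higher pairs (27.1 to 60.5%) were counted once, and from 200 kb to 1 Mb 93.0% (80.9 to 98.5%) and 49.2% (36.6 to 61.9%). It was also seen beyond the window, where both reporters were over 1 Mb away on the same side, with 96.8% of 62 lower pairs (88.8 to 99.6%) and 57.4% of 61 higher pairs (44.1 to 70.0%). In primed cells the intervals of the sides were apart from 200 kb to 1 Mb, at 97.6% (87.4 to 99.9%) and 61.1% (43.5 to 76.9%), and beyond 1 Mb, with 35 of 39 and 13 of 26 pairs counted once, and they overlapped from 50 to 200 kb. Under 50 kb they lay apart by little, at 72.6 to 94.8% and 31.3 to 72.2%. Median fragment length was 208 bp over the 204 lower and 226 bp over the 216 higher fragments in naive cells, and 190 and 211 bp in primed cells, and its relation to the repeats was not tested. Over neighbouring fragments alone, 83.1% of the lower (73.3 to 90.5%) and 42.7% of the higher naive pairs (31.3 to 54.6%) were counted once.

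**Figure D4:**
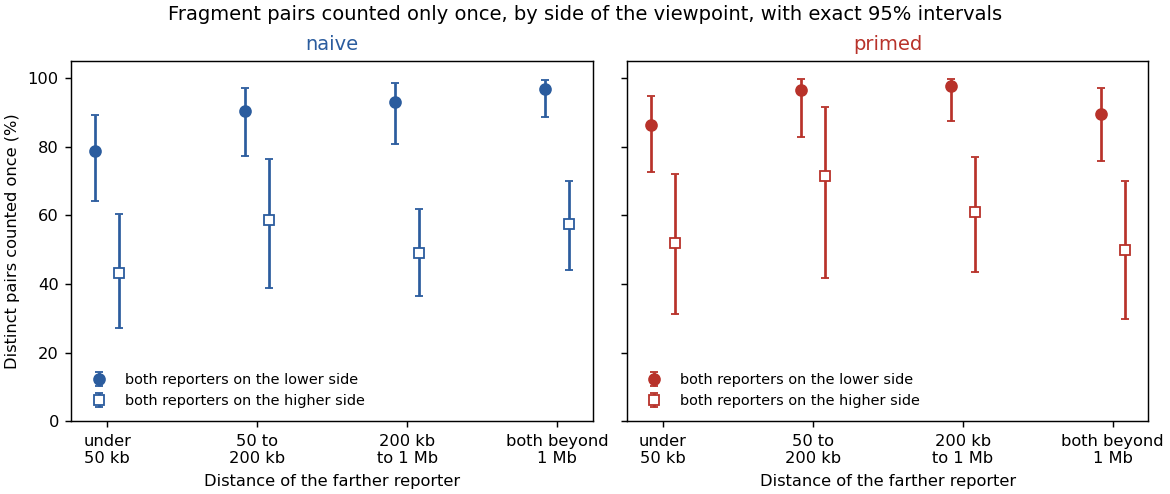
Share of distinct fragment pairs that were counted once (y axis, %) by the distance of the farther reporter (x axis), for pairs with both reporters below (filled circles) or above the viewpoint (open squares) in naive and primed cells, with exact 95% intervals. The last class holds pairs with both reporters over 1 Mb away. The open squares, between 43.2 and 71.4%, lie below the filled circles, between 78.7 and 97.6%, in each class.

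At the 10 other viewpoints the sides were more alike. Counts per distinct pair were 1.59 times as high above as below the Malt1 viewpoint in naive cells and 1.70 times in primed cells. Elsewhere this quotient ran from 0.735 to 1.29 in naive and from 0.802 to 1.14 in primed cells. These values have no interval, so they describe the tables and are not a test. Among the genes below Alpk2, Nedd4l had 34 naive counts on 32 distinct pairs and 29 primed counts on 28, and Atp8b1 7 on 7 and 3 on 3. Above Malt1, Zfp532 had 25 on 13 and 40 on 17, Oacyl 18 on 11 and 9 on 5, and Sec11c 10 on 5 and 3 on 2. Ccbe1 had repeats in naive cells, with 21 on 13, but none in primed cells, with 5 on 5, and Grp had none in either state, with 3 on 3 in each. What caused the repeats above the viewpoint was not tested.

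Shares beyond the window refer to all 682 naive and 485 primed counts of the viewpoint. Of these, 44 naive counts (6.45%, 4.73 to 8.56%) and 55 primed counts (11.3%, 8.66 to 14.5%) had 1 reporter within 1 Mb and the other farther off on the chromosome. These intervals do not overlap. Counts with both reporters beyond 1 Mb were 168 in naive (24.6%, 21.4 to 28.0%) and 99 in primed cells (20.4%, 16.9 to 24.3%). Of the counts with both reporters beyond 1 Mb, 62.5% in naive (54.7 to 69.8%) and 64.6% in primed cells (54.4 to 74.0%) joined neighbouring fragments, close to their share inside the window. Among the 11 viewpoints compared here, the local share of the Malt1 viewpoint ranked 2 in naive and 3 in primed cells.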

How the data were processed

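With CapCruncher, run in its capture mode on mm10, and in-house scripts that kept reads of at least 2 cis reporters, the authors obtained and deposited whole-number counts of reporter fragment pairs per viewpoint and state, without normalization. The version and aligner of this tool and its handling of duplicates were not given in the sources used here. Each table was assigned to its state and pool, the pool through the study's list of oligonucleotides.

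Totals were 682 counts in naive and 485 in primed cells. Fragments were placed by their midpoint into bins of 10 kb. Shares have Clopper-Pearson intervals and ratios of shares have exact conditional intervals, computed with scipy 1.17.1 under Python 3.11.15 (numpy 2.4.6). The ratio intervals were tested on simulated independent counts, which hold no repeated pairs, so that test does not cover the repeats of the real counts. Plots were drawn with matplotlib 3.10.9. Gene spans come from RefSeq (GRCm38.p6), and strands only, without coordinates, from GENCODE vM1.

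Named were Malt1, Alpk2, each further protein-coding gene of the window with at least 10 counts, the 5 most counted fragments and bin pairs, and the extreme ratios among bins with at least 20 counts. Members and lists were chosen with earlier results of these data known. Alternatives changed the weight of repeats, the excluded region, the denominator, gene spans, the window, bins and filters.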

Additional observations from a re-analysis of the deposited data

How the results depend on the processing

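No paired analysis was possible because no replicate numbers stand in the tables, which were taken as sums, so no replicate could be left out either. Leaving out neighbouring fragments, or the most counted pair of each state, was chosen after seeing the data. Of 82 alternative values for 13 results 78 stayed within the interval of the reported ratio or within 1.5 times the reported count. This criterion is loose, since some intervals are as wide as 0.163 to 107, for Malt1 with Alpk2, and many alternatives share their counts. It also passes alternatives whose own interval came to include 1, as for Alpk2 by distinct pairs. The number is thus no measure of robustness. The naive over primed ratio for Malt1 moved from 0.893 to 1.30 with each distinct pair counted once. The 9 bins past 2-fold, 5 higher in naive and 4 in primed cells, became 3 by distinct pairs (2 and 1), 3 with a minimum of 20 counts (0 and 3) and 20 with a minimum of 5 (13 and 7), out of 14, 10 and 44 bins tested in place of 26. The balance of directions thus moved with the filter. By distinct pairs, 7 of the 9 bins fell under the minimum of 10, 1 of the Alpk2 bins moved to a ratio of 0.508, and 1 stayed past 2-fold, the other 2 of the 3 being different bins. The ratio for Malt1 with Alpk2, from 3 and 1 counts, went from 2.03 to 0.678 with both spans widened by 5 kb, which gave 4 and 4 counts. With 429 and 291 counts, the intervals of single bins and genes are wide.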
